A study of Mus musculus with 12 samples.

Results

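The NRF2 antioxidant system was followed through 10 of its genes in cisplatin-treated pancreatic cancer cells. They were chosen by name (Nfe2l2, Keap1, Hmox1, Nqo1, Gclc, Gclm, Srxn1, Prdx1, Txn1 and G6pdx), and each matched a single row, so that they make up 10 of the 15803 genes with a read in at least 1 library. All 10 had reads in all 12 libraries and passed the filter on low values in both assays. The libraries came from KPC cells, a mouse pancreatic ductal adenocarcinoma (PDAC) line from tumors of engineered mice with Trp53 LSL-R172H and Pdx1-Cre, in which Cre recombinase is driven by the promoter of a pancreatic transcription factor. Every group therefore carried mutant Trp53, and the results are those of 1 line. Cells received 20 μM cisplatin (Cis), a platinum drug that crosslinks DNA, for 6 h or for 21 h. The control cells are labelled as untreated and, by the study's methods, received PBS. The labels do not say how long PBS was given, and both time points were compared with the same 2 PBS libraries of each assay. Each group had 2 ribosome profiling and 2 RNA-seq libraries. Nothing in the labels says that replicates came from separate cultures, so p-values measure the spread between these libraries, which may be technical.

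NRF2, the product of Nfe2l2, is a transcription factor that binds antioxidant response elements (AREs) in partnership with small MAF proteins. In resting cells KEAP1 delivers NRF2 to a CUL3 ubiquitin ligase and it is degraded. Electrophiles and oxidants modify cysteines of KEAP1, NRF2 accumulates, and enzymes of glutathione synthesis, peroxide reduction, quinone reduction, haem breakdown and NADPH supply are induced. Raised NRF2 activity is known from many tumors, those of the pancreas among them. Because NRF2 is controlled mainly by protein stability, neither its footprints nor its mRNA measure how much NRF2 protein was present.

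Ribosome profiling sequences the mRNA fragments that ribosomes protect (footprints), so that their density on a coding sequence reflects its translation. RNA-seq of the lysates gives the amount of mRNA. Both are given as RPKM, reads per kilobase of coding sequence (footprints) or of transcript (RNA) and scaled to the total of the library, so levels of different genes can be compared. Footprint libraries held 3375480 to 5204127 reads and RNA-seq libraries 1985344 to 2901692, of which 3 transcripts (Lars2, Tmem38b and Mettl26) took 51.8% to 56.6%. Summed over 8 ductal epithelial markers, footprints reached 9113 to 9795 RPKM with PBS and 6728 to 6861 RPKM at 21 h. Krt8, Krt18 and Krt19 carried most of this sum, while Epcam and Muc1 stayed at or below 1.83 and 0.711 RPKM. Krt7, Krt8, Krt19 and Cdh1 were lower at 21 h than with PBS. Krt18, Epcam and Muc1 overlapped, and Sox9 rose from 13.0 and 11.1 RPKM to 30.9 and 22.8. Summed over 5 fibroblast, 5 leukocyte and 3 endothelial markers, footprints stayed at or below 4.18, 10.4 and 0.666 RPKM. The leukocyte sum was highest at 21 h, and its part in the results below was not tested.

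The ARE is the DNA sequence shared by NRF2 target genes, and its core reads TGACNNNGC. RefSeq windows of 300 bases around the start site (250 before and 50 after, mouse build GRCm38.p6) were at hand for 8 of the 10 genes, all but Hmox1 and Gclc. The core, searched on both strands, was found in 5 of these 8 windows, compared with 4071 of 32851 windows in RefSeq (12.4%). The stretches around these 5 matches are shown for their sequence. The genes were listed by name as NRF2 targets, which share the ARE. A share above that of all windows is therefore no independent support. They run 5′ to 3′ on the strand of the gene, with the core in capitals; a core on the opposite strand appears as its reverse complement, GCNNNGTCA.
Nfe2l2: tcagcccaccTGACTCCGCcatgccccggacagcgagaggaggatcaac
Srxn1: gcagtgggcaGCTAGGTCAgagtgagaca
Gclm: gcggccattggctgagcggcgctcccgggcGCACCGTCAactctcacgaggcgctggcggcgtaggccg
Prdx1: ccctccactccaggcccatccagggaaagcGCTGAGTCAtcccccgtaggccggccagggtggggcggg
G6pdx: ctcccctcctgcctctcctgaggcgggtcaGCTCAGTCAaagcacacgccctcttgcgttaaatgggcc
The stretches lie at chr2:75704865-75704913 (minus strand) for Nfe2l2, chr2:152105542-152105570 (plus) for Srxn1, chr3:122245393-122245461 (plus) for Gclm, chr4:116685436-116685504 (plus) for Prdx1 and chrX:74428899-74428967 (minus) for G6pdx. The core began 240 bases before the start site in Nfe2l2, 134 before in Gclm, 133 before in Prdx1 and 57 before in G6pdx. In Srxn1 it lay 29 bases past the start. The windows of Keap1, Nqo1 and Txn1 held no match, which says only that these letters are not in those 300 bases. The AP-1 site TGACTCA, which an ARE core can contain, was found in the windows of Prdx1 and Srxn1 and in 5.20% of all windows. It overlapped the ARE core in Prdx1 only. A match describes the sequence and does not show that NRF2 was bound there.

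At 21 h of Cis, footprints were higher than with PBS for 9 of the 10 genes, all but Keap1, and RNA was higher for 5 (Nfe2l2, Hmox1, Gclc, Srxn1 and Prdx1). At 6 h only Srxn1 passed the test, in footprints. The largest changes at 21 h were in footprints of Srxn1 (2.83-fold) and Hmox1 (2.65-fold). Many other transcripts changed as well. Of 10383 transcripts tested in footprints, 18.9% were higher and 20.2% lower at 21 h, and of 9443 tested in RNA, 11.6% were higher and 12.2% lower. None of the 10 genes was lower in either assay. RPKM are relative to the library, and with bulk samples a change in the number of cells of a kind and a change in RNA per cell cannot be told apart. The study reports lower protein synthesis under Cis, by puromycin labelling of new proteins. Higher footprints here are relative to other transcripts and do not give translation per cell. The median change of the 10 genes at 21 h was 0.46 on the log2 scale in footprints, beside 0.01 over all transcripts tested, and 0.45 in RNA, beside 0.02. All changes are log2 fold changes of RPKM scaled between libraries with 0.5 added, tested with limma and Benjamini-Hochberg adjustment over all transcripts of the assay, with a threshold of 0.05. Levels in RPKM, and overlaps read from them, are given as deposited, before this scaling. With 2 libraries against 2, an exact permutation test of a single gene could not go below p = 0.333.

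Of the 9 footprint calls at 21 h, 6 (Nfe2l2, Hmox1, Gclc, Gclm, Srxn1 and Prdx1) held under all 16 alternative settings, including each library left out in turn. Without the second 21 h library, 6 of the 9 calls were left, the losses being Nqo1 (0.31, limma adjusted p = 0.146), Txn1 (0.25, adjusted p = 0.0562) and G6pdx (0.26, adjusted p = 0.0954). Nqo1 was also lost without either PBS library (adjusted p = 0.126 and 0.0745), and G6pdx without any 1 of the 6 footprint libraries, with adjusted p between 0.0506 and 0.108. None of the 5 RNA calls at 21 h held under all settings. Of these 5, 0 were left without the second PBS library or without the first 21 h library, 1 without the first PBS library and 3 without the second 21 h library.

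**Figure D1:**
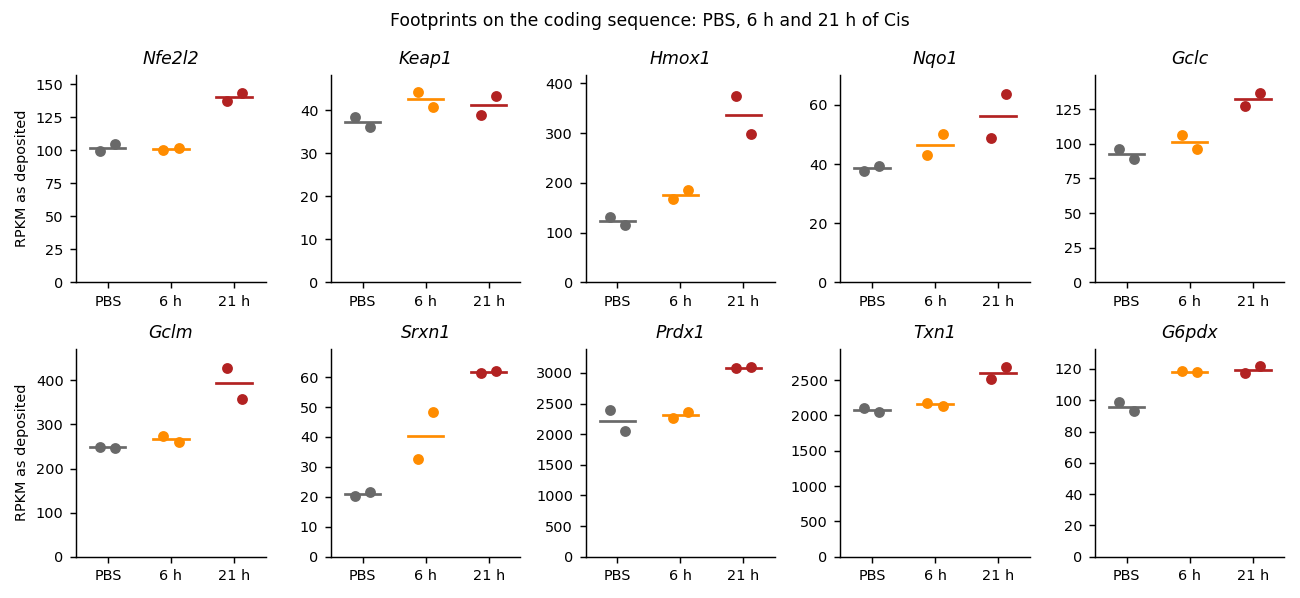
Footprint levels of the 10 genes as deposited, in RPKM on axes from 0, with a panel for each gene. Points are libraries (2 for each of PBS, 6 h and 21 h of Cis) and bars their mean. For Srxn1 the 21 h points lie at 61.3 and 62.2 RPKM against 20.2 and 21.7 with PBS. For Keap1, which was not called, they lie at 39.0 and 43.3 RPKM against 38.4 and 36.1.

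The shared regulator was the first gene examined. Footprints on Nfe2l2 stood at 99.2 and 105 RPKM with PBS, 100.2 and 102 at 6 h and 137 and 143 at 21 h. PBS and 6 h libraries overlapped, and both 21 h libraries lay above them. The change was -0.03 at 6 h (95% interval -0.23 to 0.18) and 0.42 ± 0.09 (SE) at 21 h (limma, adjusted p = 0.00639). Nfe2l2 RNA stood at 21.5 and 24.9 RPKM with PBS, 24.4 and 19.1 at 6 h and 32.8 and 36.3 at 21 h. The 21 h libraries again lay above all others, with a change of 0.48 ± 0.15 (limma, adjusted p = 0.0413). This call was lost without any of the PBS or 21 h RNA-seq libraries, with adjusted p from 0.0850 to 0.218.

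KEAP1, which marks NRF2 for degradation, was the exception among the 10 genes. Its footprints were at 38.4 and 36.1 RPKM with PBS, 44.3 and 40.8 at 6 h and 39.0 and 43.3 at 21 h. The 21 h libraries were above the PBS libraries by less than the test could call (0.10, 95% interval -0.16 to 0.36; limma, adjusted p = 0.50), and they overlapped those at 6 h. Keap1 RNA was at 11.9 and 8.20 RPKM with PBS and 14.7 and 13.5 at 21 h, a change of 0.41 with an interval of -0.05 to 0.87 that did not pass (limma, adjusted p = 0.177). The ratio of Nfe2l2 to Keap1 footprints was 2.59 and 2.90 with PBS, 2.26 and 2.5 at 6 h and 3.52 and 3.31 at 21 h, so the 21 h libraries lay above the rest. In RNA the same ratio overlapped between groups, at 1.80 and 3.04 with PBS and 2.23 and 2.69 at 21 h.

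HMOX1 breaks haem down to biliverdin, carbon monoxide and iron. Footprints on Hmox1 were at 131 and 115 RPKM with PBS, 167 and 185 at 6 h and 374 and 298 at 21 h, and no group overlapped another. The rise at 21 h was 1.40 ± 0.12 (limma, adjusted p = 8.74e-05). The 6 h value of 0.50 ± 0.12 missed the threshold (limma, adjusted p = 0.0704) and passed it under 5 of 16 alternatives, among them without the first or the second 21 h library (adjusted p = 0.0378 and 0.0379). Hmox1 RNA was at 24.9 and 23.3 RPKM with PBS, 22.5 and 29.0 at 6 h and 46.8 and 38.4 at 21 h. PBS and 6 h libraries overlapped, and the rise at 21 h was 0.72 ± 0.16 (limma, adjusted p = 0.0114). This call was lost without the second PBS library (0.66, adjusted p = 0.0760) or the first 21 h library (0.55, adjusted p = 0.0750).

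NQO1 reduces quinones by 2 electrons and keeps them from redox cycling. Nqo1 footprints were at 37.6 and 39.4 RPKM with PBS, 43.0 and 50.1 at 6 h and 48.8 and 63.7 at 21 h. The 6 h and 21 h libraries overlapped, and both groups lay above PBS. The 21 h rise was 0.49 ± 0.15 (limma, adjusted p = 0.0286), and it rested on 148 to 183 reads per library. Nqo1 RNA was among the shallowest values of the set, with 17 to 47 reads per library. It stood at 8.63 and 10.4 RPKM with PBS, 5.51 and 9.76 at 6 h and 9.12 and 11.7 at 21 h, and all groups overlapped. Its change at 21 h was 0.04 with an interval of -0.53 to 0.60, which includes a rise as large as that of the footprints. Under quantile normalization this value turned to -0.02.

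GCLC and GCLM are the catalytic and the modifier subunit of glutamate-cysteine ligase, the rate-limiting enzyme of glutathione synthesis. Gclc footprints were at 96.5 and 89.1 RPKM with PBS, 106 and 96.6 at 6 h and 127 and 136 at 21 h, a rise of 0.47 ± 0.10 at 21 h (limma, adjusted p = 0.00527). Gclm footprints were at 250 and 246 RPKM with PBS, 273 and 261 at 6 h and 427 and 359 at 21 h, a rise of 0.62 ± 0.10 (limma, adjusted p = 0.00138). For both subunits the 21 h libraries lay above all others, and the 6 h changes of 0.11 and 0.09 did not pass (limma, adjusted p = 0.542 and 0.623). Gclc RNA rose from 18.9 and 20.7 RPKM with PBS to 30.7 and 35.2 at 21 h (0.64 ± 0.17; limma, adjusted p = 0.0261). Gclm RNA was at 11.5 and 11.7 RPKM with PBS and 19.9 and 17.5 at 21 h, and its change of 0.59 ± 0.19 narrowly missed the threshold (limma, adjusted p = 0.0526). The Gclc call was lost without any PBS or 21 h RNA-seq library (adjusted p from 0.0621 to 0.134), while Gclm passed without either 6 h library (adjusted p = 0.0257 and 0.0280). At 6 h the 2 RNA-seq libraries of both subunits stood apart, Gclc at 17.2 and 25.2 RPKM and Gclm at 10.9 and 16.0. Per length, Gclm carried more footprints than Gclc in every library (2.57 to 3.35 times) and less RNA (0.498 to 0.647 times), and PBS and 21 h libraries overlapped in both ratios.

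The remaining antioxidant enzymes act on peroxides. PRDX1 is an abundant peroxiredoxin that reduces hydrogen peroxide, SRXN1 (sulfiredoxin) restores peroxiredoxins that have been overoxidized, and TXN1 is the cytosolic thioredoxin that reduces PRDX1 and other proteins. With PBS, Srxn1 had the lowest footprint level of the 10 genes, and its change at 21 h was the largest. Its footprints were at 20.2 and 21.7 RPKM with PBS (49 and 47 reads), 32.5 and 48.4 at 6 h (71 and 76 reads) and 61.3 and 62.2 at 21 h (105 and 101 reads). No group overlapped another. The rise was 0.89 ± 0.18 at 6 h (limma, adjusted p = 0.0428) and 1.5 ± 0.18 at 21 h (limma, adjusted p = 0.000375). At 6 h, 1.05% of all transcripts were called higher in footprints and 1 of the 10 genes was. That call was lost without either PBS library (adjusted p = 0.165 and 0.139) or either 6 h library (adjusted p = 0.0509 and 0.223).

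Srxn1 RNA was at 25.6 and 23.5 RPKM with PBS, 29.6 and 31.7 at 6 h and 39.8 and 35.9 at 21 h. These deposited values did not overlap between groups. The tests divide by scaling factors of 0.959 and 0.963 at 6 h and 1.042 and 1.095 at 21 h. After that the 6 h and 21 h libraries overlapped, and their difference of 0.15 did not pass (limma, adjusted p = 0.469). Against PBS the change was 0.38 at 6 h (limma, adjusted p = 0.323) and 0.53 ± 0.13 at 21 h (adjusted p = 0.0158). The 21 h call was lost without the first or second PBS library (adjusted p = 0.0505 and 0.106) or the first 21 h library (adjusted p = 0.0931). Across the 10 genes, 0 of 10 were called in RNA at 6 h, as were 0% of all 9443 transcripts by limma, although 1086 had an unadjusted p under 0.05. Srxn1 was the 1 member among those 1086. Limma's voom on the recovered reads called 229 transcripts in that comparison, none of them among the 10 genes.

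Prdx1 and Txn1 had the highest footprint levels of the set, Prdx1 above Txn1 in 5 of 6 libraries. Prdx1 footprints were at 2391 and 2045 RPKM with PBS, 2257 and 2359 at 6 h and 3074 and 3088 at 21 h. Only the 21 h libraries stood apart, with a rise of 0.44 ± 0.08 (limma, adjusted p = 0.00345). Prdx1 RNA was at 122 and 131 RPKM with PBS, 138 and 136 at 6 h and 182 and 167 at 21 h, a rise of 0.38 ± 0.09 at 21 h (limma, adjusted p = 0.0143). It was lost without either PBS library (adjusted p = 0.10 and 0.0550) or the first 21 h library (adjusted p = 0.0813). The ratio of Prdx1 to Srxn1 footprints went from 118 and 94.3 with PBS to 69.3 and 48.7 at 6 h and 50.2 and 49.7 at 21 h. In RNA this ratio was 4.76 and 5.55 with PBS and 4.57 and 4.65 at 21 h. In footprints the 21 h ratios lay far below those with PBS and in RNA slightly below, and the ratios themselves were not tested.

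Txn1 footprints were at 2098 and 2047 RPKM with PBS, 2182 and 2131 at 6 h and 2510 and 2692 at 21 h. The 21 h libraries lay above all others, and the rise was among the smallest of the set (0.29 ± 0.07; limma, adjusted p = 0.0131). Txn1 RNA was at 117 and 114 RPKM with PBS, 112 and 89.0 at 6 h and 127 and 136 at 21 h. The 21 h change of 0.10 did not pass (95% interval -0.15 to 0.35; limma, adjusted p = 0.550).

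G6PDX, glucose-6-phosphate dehydrogenase, makes the NADPH that glutathione reductase and thioredoxin reductase consume. Its footprints were at 98.6 and 93.2 RPKM with PBS, 119 and 118 at 6 h and 117 and 122 at 21 h. Both Cis groups lay above PBS and overlapped each other. The change was 0.29 ± 0.09 at 6 h (limma, adjusted p = 0.110) and 0.28 ± 0.09 at 21 h (adjusted p = 0.0300). G6pdx RNA overlapped between PBS (15.3 and 18.6 RPKM) and 21 h (18.0 and 24.0 RPKM), with a change of 0.21 that did not pass (limma, adjusted p = 0.383). G6pdx has a near-identical copy, G6pd2, and Txn1 and Prdx1 have processed pseudogenes. How reads with several matches were counted is not given in the sources used here, so the values of these 3 genes may include or lack shared reads.

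**Figure D2:**
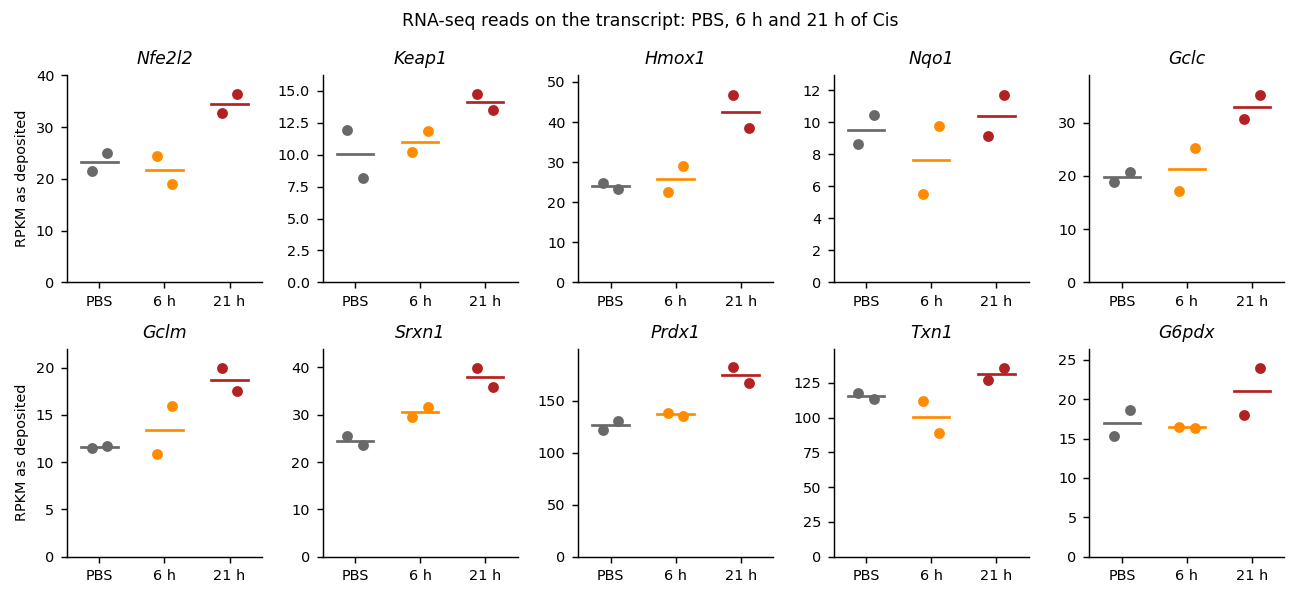
RNA-seq levels of the 10 genes as deposited, in RPKM on axes from 0, with a panel for each gene, points for libraries and bars for the mean of 2. Hmox1 and Srxn1 lie higher in both 21 h libraries than in both PBS libraries, while Nqo1, at 8.63 and 10.4 RPKM with PBS and 9.12 and 11.7 at 21 h, overlaps.

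**Figure D3:**
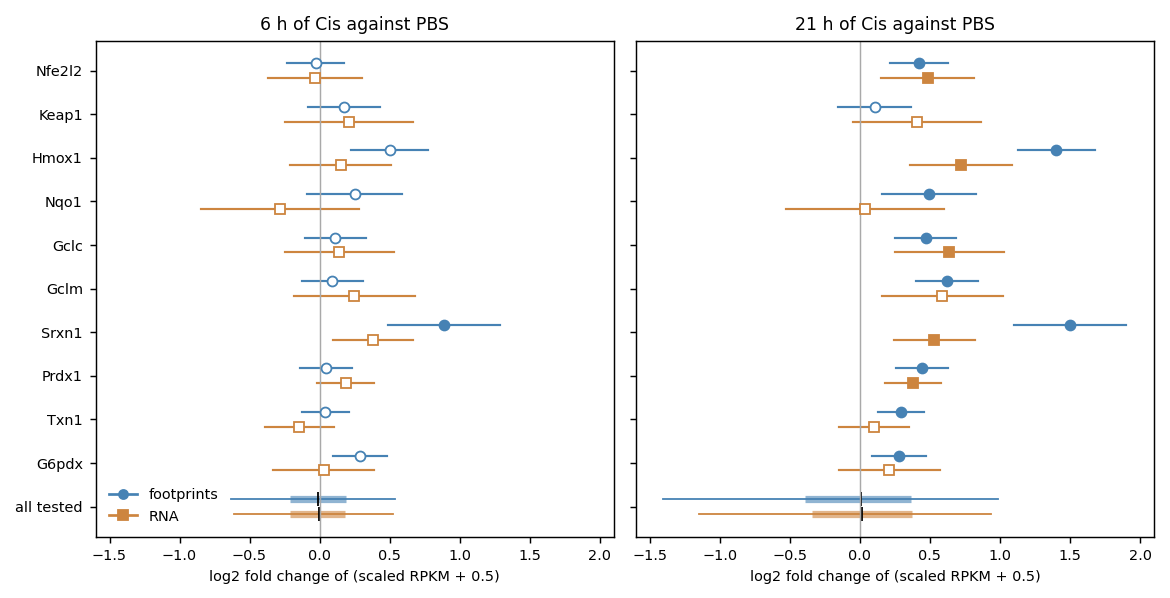
Log2 fold changes of scaled RPKM + 0.5 against PBS at 6 h (left) and 21 h (right), with 95% intervals, for footprints (circles) and RNA (squares); filled symbols passed the test. The bottom row gives all transcripts tested (tick, median; thick bar, middle 50%; thin line, 5th to 95th percentile); Hmox1 and Srxn1 footprints at 21 h lie above the 95th percentile, 0.99, and Keap1 is the open circle at 0.10.

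The share of all reads that fell on the 10 genes summarises these changes. Footprints on them made up 0.303% and 0.278% of the library with PBS, 0.310% and 0.314% at 6 h and 0.411% in both 21 h libraries. In RNA the shares were 0.0793% and 0.0815% with PBS, 0.0823% and 0.0863% at 6 h and 0.115% and 0.113% at 21 h. In both assays the 3 groups did not overlap, and the step from 6 h to 21 h was the larger. Prdx1 and Txn1 alone gave 63.8% to 68.8% of the footprints on the set, so these shares follow them most.

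Whether the 2 time points differed was tested directly. The PBS libraries enter the difference itself only slightly, through the scaling between libraries, but they enter its error, which was estimated over all 3 groups. Footprints were higher at 21 h than at 6 h for 7 of the 10 genes (Nfe2l2, Hmox1, Gclc, Gclm, Srxn1, Prdx1 and Txn1), while 15% of all transcripts were. The largest difference was that of Hmox1 (0.90 ± 0.12; limma, adjusted p = 0.00124), followed by Srxn1 (0.61 ± 0.18; adjusted p = 0.0307). Keap1 (-0.07), Nqo1 (0.24) and G6pdx (-0.01) did not pass. Without the first 6 h library only 2 of the 7 calls were left, and 4 were left without the second 6 h library or without the second 21 h library; Hmox1 and Gclm held in each of these. In RNA, 2 of the 10 genes were higher at 21 h than at 6 h, Nfe2l2 (0.51 ± 0.15; limma, adjusted p = 0.0441) and Hmox1 (0.57 ± 0.16; adjusted p = 0.0413), beside 7.53% of all transcripts. No RNA call was left without either PBS library, without the first 21 h library or with only the 2 groups compared in the model (adjusted p = 0.0614 for Nfe2l2 and 0.0603 for Hmox1), and 1 was left without the second 21 h library. Without the first 6 h library Hmox1 was lost (adjusted p = 0.208) and Txn1 was gained, and without the second Nfe2l2 was lost (adjusted p = 0.212) and Gclc was gained.

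The ratio of footprints to RNA, the translation efficiency (TE), compares how heavily each mRNA was loaded. With PBS the genes covered most of the range of the transcriptome. Gclm (21.7), Txn1 (18.2) and Prdx1 (17.8) had ratios of mean RPKM above the 98th percentile of 9295 transcripts, whose median was 3.49. Their ranges over the 4 pairings of footprint and RNA-seq libraries ran from 21.5 to 21.9, from 17.7 to 18.7 and from 16.2 to 19.4, so that Gclm stood above the other 2, which overlapped. A middle group followed with G6pdx (5.74), Hmox1 (5.18), Gclc (4.75), Nfe2l2 (4.46), Nqo1 (4.10) and Keap1 (3.75), and each overlapped its neighbours in that order. Srxn1 lay far below at 0.866 (0.785 to 0.956), at the 4.06th percentile. The catalytic and the modifier subunit of the same ligase therefore differed, with 4.46 to 5.07 for Gclc and 21.5 to 21.9 for Gclm. RNA reads were divided by the length of the listed transcript, which is 5589 bases for Gclm, 2812 for Srxn1 and 2294 for Prdx1, and whether the cells used these full lengths was not tested.

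The ratio of Srxn1 went from 0.866 with PBS to 1.26 at 6 h (0.984 to 1.56 over the pairings) and 1.71 at 21 h (1.57 to 1.87), and no pairing at 21 h overlapped one with PBS. That of Hmox1 went from 5.18 (4.71 to 5.69) to 6.55 (5.52 to 7.87) and 8.24 (6.53 to 10.4). With assay and treatment as interacting terms in a model of the 12 libraries, neither passed. At 21 h, 0 of the 10 genes and 0.409% of all transcripts were called, with Srxn1 at 0.97 ± 0.23 (limma, adjusted p = 0.107) and Hmox1 at 0.68 ± 0.22 (adjusted p = 0.237) the 2 members with an unadjusted p under 0.05. Voom on the recovered reads called 1 of the 10, Srxn1, at 0.97 (adjusted p = 0.0321). At 6 h, 0 of the 10 genes and 0% of all transcripts were called, 710 transcripts and 0 members having an unadjusted p under 0.05; voom called 14 transcripts and no member. For the other 8 genes the TE change at 21 h lay between -0.31 (Keap1) and 0.46 (Nqo1). Their 95% intervals were wide, from -0.84 to 0.23 for Keap1 and from -0.24 to 1.16 for Nqo1, and tightest for Prdx1 (-0.20 to 0.32).

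**Figure D4:**
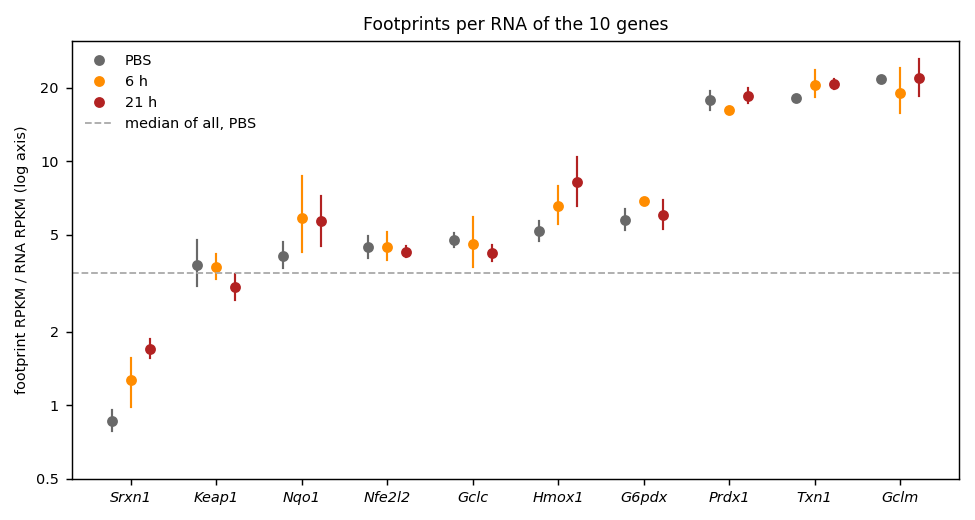
Footprint RPKM over RNA RPKM (log axis) for the 10 genes, ordered by their value with PBS; points are ratios of the group means and lines the range over the 4 pairings of libraries. Srxn1 is lowest at 0.866, 1.26 and 1.71 with PBS, at 6 h and at 21 h, and Gclm, Txn1 and Prdx1 lie highest; the dashed line is the median of all transcripts with PBS, 3.49.

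The wider pathway was described with 6 lists of 89 further genes, all of them in the files and 84 of them tested in footprints. At 21 h, 25 of the 84 were higher in footprints and 19 lower, and in RNA 13 of 81 were higher and 9 lower. These shares are read beside the 18.9% higher and 20.2% lower of all transcripts in footprints and the 11.6% and 12.2% in RNA, and those of lower genes lie near them. Beside these counts stand 9 higher and 0 lower among the 10 genes, and the difference between the lists was not tested. The median change over the 84 genes was 0.10 in footprints, beside 0.46 for the 10.

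Among 13 regulators and partners of NRF2, 4 were higher and 3 lower in footprints at 21 h. Of all transcripts, 18.9% were higher and 20.2% lower. Sqstm1, which encodes the p62 protein that can sequester KEAP1, rose from 451 and 505 RPKM to 1263 and 1322 (1.40 ± 0.09; limma, adjusted p = 1.82e-05), and its RNA rose by 1.42. The 3 small MAF partners all rose in footprints, Maff by 1.06, Mafg by 0.87 and Mafk by 0.83. The 3 that fell, a share close to that of all transcripts, have roles in the degradation of NRF2, which was not measured. Their genomic spans were not examined, and transcripts spanning more than 100 kb had a median change of -1.08 in footprints at 21 h. Btrc, the β-TrCP adaptor of the KEAP1-independent route, fell by 1.70 on the log2 scale. It went from 10.5 and 11.1 RPKM (99 and 94 reads) to 3.29 and 2.84 (22 and 18 reads). Gsk3b, whose kinase primes that route, fell by 1.36 on the log2 scale, and Cul3, the scaffold of the KEAP1 ligase, fell by 0.66 on the log2 scale. Rbx1, another ligase subunit, was at 0.01 and was not called.

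Of 19 genes of glutathione synthesis and use, 7 were higher and 4 lower in footprints at 21 h. The shares over all transcripts were 18.9% and 20.2%. Chac1, which degrades glutathione, rose by 1.43 from 11.5 and 14.8 RPKM to 38.1 and 35.5, and Slc3a2, the heavy chain of the cystine transporter, by 0.55. Gss, the second enzyme of glutathione synthesis, rose by 0.54. Slc7a11, the cystine-carrying light chain and a known NRF2 target, fell by 0.43 on the log2 scale, a call lost without the first PBS or the first 21 h library (adjusted p = 0.133 and 0.115). Gsr, glutathione reductase, fell by 0.60 on the log2 scale from 455 and 438 RPKM to 314 and 288. Mgst3, a microsomal glutathione transferase, fell by 0.65 on the log2 scale. Genes of this list were therefore called in both directions, with a share of lower genes close to that of all transcripts.

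Among 16 thioredoxin, peroxiredoxin and superoxide enzymes, 3 were higher, a share close to the 18.9% of all transcripts, and 0 were lower. Txnip, whose protein binds and inhibits thioredoxin, had the largest rise, from 240 and 215 RPKM to 920 and 858 in footprints (1.93 ± 0.08; limma, adjusted p = 5.25e-06) and by 2.67 in RNA. Sesn2, a stress-induced sestrin, rose by 1.11, and Txnrd1, the cytosolic thioredoxin reductase, by 0.42. Peroxiredoxins Prdx2 to Prdx6 lay between -0.12 and 0.22 and none was called.

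Among genes of NADPH supply, more were called lower than higher in footprints at 21 h. Of all transcripts, 18.9% were higher and 20.2% lower, and the list was not tested against them or against other lists. Of 9 genes tested, 1 was higher and 5 lower in footprints at 21 h, while G6pdx, whose enzyme also makes NADPH, was higher. The 1 higher gene was Pgd (0.27), whose call was lost without either PBS library or the second 21 h library. Me1, the cytosolic malic enzyme and a known NRF2 target, fell by 0.89 on the log2 scale from 535 and 464 RPKM to 295 and 257, with RNA at -0.94. Pgls fell by 0.65, Idh1 by 0.53 and Rpe by 0.44 on the log2 scale, and the calls of Pgls and Rpe were lost without some libraries, Pgls without the first PBS or first 21 h library (adjusted p = 0.0645 and 0.0649) and Rpe without the second PBS library or either 21 h library (adjusted p = 0.126, 0.0691 and 0.0590). Idh2 was at -0.38 in footprints and -0.54 in RNA and was called in both.

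Of 8 other genes of haem and iron, 4 were higher and 0 lower in footprints at 21 h, beside 18.9% and 20.2% of all transcripts. Slc48a1, a haem transporter, rose by 1.49, and Fth1 and Ftl1, the ferritin chains that store the iron that HMOX1 releases, rose by 1.28 and 1.06. Blvrb, a biliverdin reductase, rose by 0.54 and lost its call without the second PBS library (adjusted p = 0.160) or the second 21 h library (adjusted p = 0.122). In RNA only Fth1 was called (0.27). Across all 6 lists, TE at 21 h was called for 3 genes, higher for Fth1 (1.01; limma, adjusted p = 0.00933) and Ftl1 (1.19; adjusted p = 0.0413) and lower for Txnip (-0.74; adjusted p = 0.0431). None of these calls held under all settings. That of Fth1 was lost without the second PBS or the second 21 h RNA-seq library (adjusted p = 0.0566 and 0.0584), without a trend in the prior variance (0.142) and with only the groups compared (0.0548). That of Ftl1 was lost without any 1 of the 12 libraries (adjusted p from 0.0531 to 0.131), and that of Txnip without any footprint library or any PBS or 21 h RNA-seq library (adjusted p from 0.0741 to 0.201). Both were also lost without the trend (adjusted p = 0.183 and 0.219) and with only the groups compared (0.0774 and 0.0974). Ferritin genes have many processed pseudogenes, and their values may include or lack shared reads. Hmox2, the constitutive haem oxygenase, was at 0.10 in footprints and was not called, beside 1.40 for Hmox1.

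Of 19 genes of detoxification and efflux, 6 were higher and 7 lower in footprints at 21 h, beside 18.9% and 20.2% of all transcripts. Osgin1, an NRF2 target that restrains growth, rose by 1.88 from 4.69 and 3.59 RPKM to 18.9 and 15.0. Akr1b8, an aldo-keto reductase, rose by 0.51. The conjugate exporters fell, Abcc4 by 2.07, Abcc1 by 1.04 and Abcc3 by 0.87 on the log2 scale, with Abcc4 going from 20.4 and 21.4 RPKM to 5.32 and 4.18. In RNA, Abcc4 was at -1.53 and Osgin1 at 0.83. Of the RNA calls named here or chosen by the same rule, those of Btrc, Chac1, Mgst3, Txnrd1, Idh2, Fth1 and Osgin1 were lost without the first PBS library, with adjusted p from 0.0610 to 0.181.

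**Figure D5:**
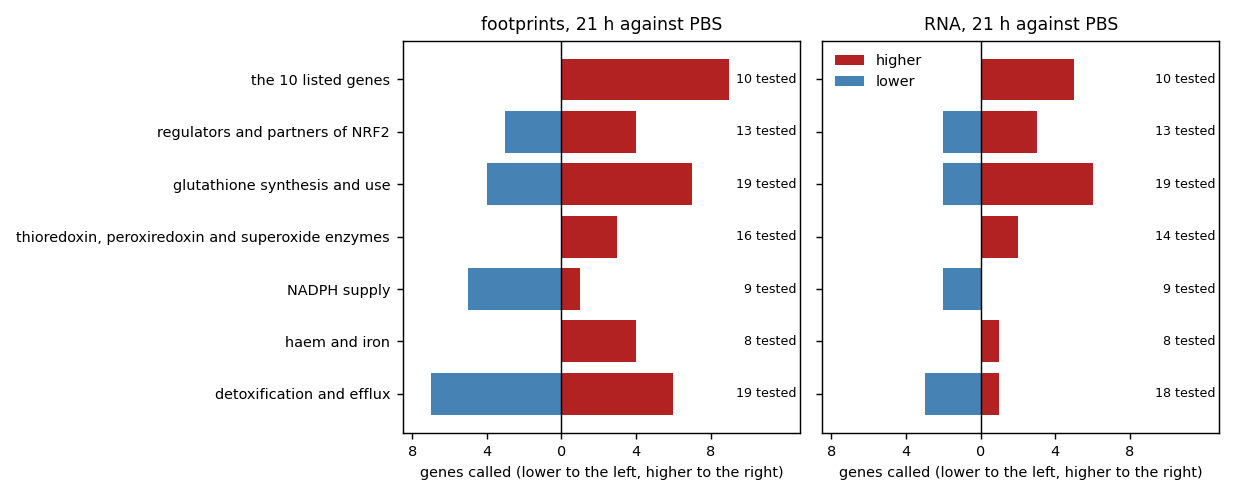
Number of genes called higher (right, red) and lower (left, blue) at 21 h against PBS in footprints and in RNA, for the 10 genes and for 6 lists of other pathway genes, with the number tested at the right of each row. The 10 genes have 9 and 5 called higher and 0 lower, and NADPH supply has 1 higher and 5 lower in footprints. Of all transcripts tested, 18.9% were higher and 20.2% lower in footprints, and 11.6% and 12.2% in RNA.

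Gene length moved with the changes at 21 h. The 10 genes are short, with genomic spans by RefSeq of 5.85 kb (Srxn1) to 40.0 kb (Gclc). Over all transcripts with a span no longer than that of Gclc, the median change at 21 h was 0.17 in footprints (7068 transcripts) and 0.14 in RNA (6463). Over those above 100 kb it was -1.08 in footprints (1123 transcripts) and -0.85 in RNA (980). The medians of the 10 genes, 0.46 and 0.45, were higher than those of transcripts of their span, and the part of length in their changes was not tested. Spans of the genes in the 6 lists, those called lower among them, were not set beside their changes.

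The genes whose levels followed the pattern of Nfe2l2 most closely over the 12 libraries, by root-mean-square distance of centred log2 values among 5574 transcripts, were Rbm27 (0.05), Chd4 (0.06) and Rangap1 (0.07), where the median distance was 0.30. For Hmox1 they were Ip6k2 (0.16), Etv3 (0.16) and Prkrip1 (0.17), where the median was 0.50. The other members were not the nearest to either. Closest to Nfe2l2 was Txn1, at rank 178, and closest to Hmox1 was Srxn1, at rank 51, while Nfe2l2 itself was at rank 861 from Hmox1. These distances describe the levels in 12 libraries that share their control groups.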

How the data were processed

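Ribosome profiling and RNA-seq libraries of KPC cells (PBS, 6 h and 21 h of Cis, 2 libraries per assay and group) were grouped by their labels. Cells were lysed with cycloheximide and footprints came from an RNase I digest. An element of the line's genotype is not reported here. The dose was taken from the study's methods. The authors deposited RPKM for each library and a representative transcript per gene, and their processing notes name cutadapt, STAR and GRCm39. Versions and the counting tool are not given in the sources used here. A gene missing from a file was given a value of 0. RPKM multiplied by length gave whole reads (within 0.01) for 100% of values, from which depth was recovered. These read numbers carry counting error only. Median-of-ratios factors brought the libraries of an assay to the same scale, and transcripts with a mean scaled value of at least 1 were kept (10383 in footprints, 9443 in RNA, 9295 in TE). Models of log2(RPKM + 0.5) used limma 3.58.1 under R 4.3.3 (lmFit, eBayes with a trend, 3 groups per model, two-sided, Benjamini-Hochberg adjustment, threshold 0.05). TE was the interaction over 12 libraries. Fold changes on this scale understate changes of low genes.

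All 10 members were named in every comparison. From each other list, up to 4 genes with the largest absolute change among those called in footprints at 21 h and up to 2 in RNA were named, and Mafg, Mafk, Cul3, Rbx1, Gss, Slc7a11, Prdx2 to Prdx6, Pgd, Hmox2 and Akr1b8 were added after their values were seen. The members and lists were chosen with earlier results of these data known. The alternatives changed 1 choice at a time: a pseudocount of 0.1 or 1, a mean of at least 5 or no filter, no scaling or quantile normalization, eBayes without a trend, only the groups compared, the replicate number as a block, voom on the recovered reads, and each library left out. On simulated data the tests missed most true changes of the size simulated, above all in RNA and TE. Far fewer transcripts were changed there than were called here in footprints or RNA at 21 h, so the miss rate here may differ. An uncalled change is not shown to be absent. Promoter windows and spans came from RefSeq on GRCm38.p6, matched by symbol, and only windows are given with coordinates. Python 3.11.15, pandas 2.3.3, numpy 2.4.6 and matplotlib 3.10.9 were used.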

Additional observations from a re-analysis of the deposited data

Results flagged for a closer look

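Footprints were higher at 21 h than at 6 h for 7 of the 10 genes, beside 15% of all transcripts. RNA was higher for 2 of the 10, beside 7.53%. This was a direct test between the 2 Cis groups with limma, whose error was estimated over all 3 groups, PBS included. Without a trend in the prior variance, 3 of the 7 footprint differences were left. Both RNA differences were lost without either PBS library (adjusted p from 0.0624 to 0.0651) and with only the groups compared (0.0614 and 0.0603). In footprints the 21 h value was above the 6 h value by 0.45 for Nfe2l2, 0.90 for Hmox1, 0.36 for Gclc, 0.53 for Gclm, 0.61 for Srxn1, 0.40 for Prdx1 and 0.25 for Txn1 on the log2 scale. In RNA it was above by 0.51 for Nfe2l2 and 0.57 for Hmox1. Each of these genes was higher in both 21 h libraries than in both 6 h libraries, and how many of all transcripts were so was not counted.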

How the results depend on the processing

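The 9 footprint calls at 21 h against PBS numbered 6 to 8 with each library left out, and 0 of the 10 genes was called in RNA or TE at 6 h, or in TE at 21 h, when any library was left out. The single footprint call at 6 h became 0 with no filter, without the trend and with the replicate block, 2 with a mean RPKM of at least 5 or only the groups compared, 3 with voom, and 0 to 2 with a library left out. The 7 footprint calls at 21 h against 6 h became 3 without the trend and 2 to 7 with a library left out. The 5 RNA calls at 21 h became 3 with no filter or quantile normalization, 0 without the trend and 0 to 6 with a library left out. The 2 RNA calls at 21 h against 6 h became 5 without scaling, 0 with no filter, quantile normalization, no trend, only the groups compared or the replicate block, and 0 to 2 with a library left out. In TE at 21 h voom gave 1 call. Over all transcripts and both directions, the 212 footprint calls at 6 h became 17 with no filter, 344 with a mean of at least 5, 0 without the trend, 456 with only the groups compared, 37 with the replicate block and 1276 with voom. RNA calls at 6 h went from 0 to 229 with voom and 1 with quantile normalization, and those at 21 h against 6 h from 1486 to 790 without the trend and 916 with no filter. TE calls at 21 h went from 38 to 8, 67, 0, 3 and 151 with no filter, a mean of at least 5, no trend, only the groups compared and voom, and to 23 with the replicate block. With a library left out, footprint calls ranged from 0 to 398 at 6 h and from 1601 to 2985 at 21 h against 6 h, RNA calls from 1058 to 2309 at 21 h and from 684 to 1197 at 21 h against 6 h, and TE calls at 21 h from 2 to 43. The cause of these shifts was not tested.

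The replicate numbers showed no shared deviation, since the 15 correlations of same-numbered deviations lay between -0.040 and 0.035. With 2 libraries per group these correlations cannot show that same-numbered samples were unpaired. With the replicate block, 8 footprint and 4 RNA calls were left at 21 h against PBS, 6 and 0 at 21 h against 6 h, and 0 in footprints at 6 h and in TE, the last also with assay pairs as the block, where the TE calls of Fth1, Ftl1 and Txnip were lost too (adjusted p = 0.326, 0.344 and 0.332).

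The sign turned under some setting for 22 of 80 member changes, 0 of which were called. Without scaling, G6pdx turned to 0.014 in footprints at 21 h against 6 h and -0.037 in RNA at 6 h, and in TE Keap1 turned to 0.045 and Gclc to 0.053 at 6 h and Gclm to -0.010 at 21 h. With quantile normalization Nqo1 RNA turned to -0.016 at 21 h and Nfe2l2 TE to -0.000135 at 6 h. With each library left out, footprint values at 6 h ranged from -0.092 to 0.025 for Nfe2l2 and -0.052 to 0.13 for Prdx1, and at 21 h against 6 h from -0.15 to 0.0057 for Keap1 and -0.034 to 0.019 for G6pdx. RNA values at 6 h ranged from -0.21 to 0.14 for Nfe2l2, -0.066 to 0.48 for Keap1, -0.027 to 0.33 for Hmox1, -0.67 to 0.10 for Nqo1, -0.13 to 0.40 for Gclc, -0.014 to 0.51 for Gclm, -0.31 to 0.020 for Txn1 and -0.095 to 0.14 for G6pdx. Nqo1 RNA ranged from -0.097 to 0.18 at 21 h and from -0.066 to 0.70 at 21 h against 6 h. TE values at 6 h ranged from -0.17 to 0.18 for Nfe2l2, -0.30 to 0.24 for Keap1, -0.29 to 0.24 for Gclc and -0.42 to 0.11 for Gclm, and at 21 h from -0.15 to 0.033 for Nfe2l2, -0.090 to 0.17 for Gclm, -0.040 to 0.16 for Prdx1 and -0.099 to 0.24 for G6pdx. Nqo1 RNA rests on 17 to 47 reads and Srxn1 footprints on 47 to 105 reads per library.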
